A study of Drosophila melanogaster with 12 samples.

Results

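The nuclear tRNA genes of Drosophila melanogaster were compared with 3 lists of chromatin intervals from Kc167 (Kc) cells, a female embryonic cell line. Members were all genes of biotype tRNA on the chromosome arms of the Ensembl 115 annotation of the dm6 assembly, 290 of 18277 annotated nuclear genes, and 5 genes annotated as tRNA pseudogenes were left out. The series held 12 ChIP-seq libraries. Mock cells, which went through nucleofection with no dsRNA, gave 2 AGO2, 2 Pol II (antibody 8WG16) and 4 input libraries, and cells given dsRNA against LaminB and collected after 3 days gave 2 AGO2 and 2 input libraries. The replicates of a condition were pooled before intervals were called, so each condition was represented by 1 list: 4201 mock AGO2 peaks, 761 LaminB knockdown AGO2 peaks and 5905 mock Pol II domains. No replicate error could be computed, depth was unknown, and all values came from 1 cell line.

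tRNA genes are transcribed by RNA polymerase III. Its factor TFIIIC binds the A box and the B box, a pair of control elements inside the transcribed sequence, and TFIIIB is then placed on the DNA just upstream of the start. Transcription ends in a run of T downstream. Pol II does not transcribe tRNA genes, so Pol II domains close to them are of interest chiefly for the neighbouring genes. AGO2 is the Argonaute protein of the siRNA pathway, and it also binds chromatin. LaminB is the B-type lamin of the nuclear lamina.

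The 290 genes read 45 anticodons and fell into 22 types by amino acid, with initiator methionine and selenocysteine counted apart. Genes within 5 kb of each other were joined, because an interval near 1 gene of a group is often near its neighbours too. This gave 144 clusters, and the cluster was the unit of every test. Of these, 76 were single genes, 38 were pairs, and the largest were 2 clusters of 11 genes. Of the 68 clusters with more than 1 gene, which held 214 genes, 49 held a single amino acid type. By position, 127 genes lay in introns of other genes, 155 were intergenic and 8 overlapped an exon. Among the intronic genes, 72 were transcribed against the host gene and 48 along with it. All genes of the cluster were intronic in 62 clusters and intergenic in 68, and the other 14 were mixed or touched an exon.

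Next come sequences of 3 genes that an AGO2 peak covered and of the near-identical neighbour of the first. Sequences were read from the RefSeq genome of dm6 and run 5′ to 3′ on the gene strand. Capitals mark the match to GTTCNANNC, the core of the B box.
tRNA:Ile-TAT-1-1: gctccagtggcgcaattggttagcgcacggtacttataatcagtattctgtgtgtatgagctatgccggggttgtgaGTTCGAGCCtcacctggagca
tRNA:Ile-TAT-1-2: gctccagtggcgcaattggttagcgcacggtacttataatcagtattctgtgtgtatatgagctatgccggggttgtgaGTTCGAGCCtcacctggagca
tRNA:Arg-TCG-2-2: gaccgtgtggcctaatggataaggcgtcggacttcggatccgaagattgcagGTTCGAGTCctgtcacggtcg
tRNA:Pro-CGG-2-3: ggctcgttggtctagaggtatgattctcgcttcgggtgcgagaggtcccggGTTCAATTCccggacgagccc

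The Ile-TAT genes lie on the plus strand of 3L, tRNA:Ile-TAT-1-1 at 3L:769503-769600 and tRNA:Ile-TAT-1-2 at 3L:770363-770462, in intergenic DNA. They encode tRNAs with an intron and are 98 and 100 bases long. A knockdown AGO2 peak covered the first and lay 745 bp from the second. tRNA:Arg-TCG-2-2, at X:21232091-21232163 on the plus strand, lies in an intron of Mnr, which is transcribed the other way. tRNA:Pro-CGG-2-3, at 3L:18618390-18618461 on the plus strand, overlaps an exon of not, which encodes the ubiquitin protease Non-stop.

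The B box core was found on the gene strand in 271 of 290 tRNA genes (93.4%), against 1.63% of stretches of the first 73 bases of protein-coding genes. A strict form of the A box, TGGCNNAG, was found in 68 (23.4%), against 1.50% of the same stretches, and a run of at least 4 T began within 30 bp downstream of 277 genes (95.5%). The B box core was present in all 31 genes with a mock AGO2 peak within 1 kb and in 231 of the 250 genes (92.4%) with no AGO2 peak that close. Both shares were near the 93.4% of all tRNA genes, and the contrast was not tested. Sequence identity limited what the lists could show. The 290 genes held 95 distinct sequences, the most common of which, that of tRNA:Gly-GCC-1-1, occurred in 13 genes. Reads were 50 bases long and had to map uniquely, and 238 genes (82.1%) contained no 50-base stretch found once in the genome. In the 500 bp on either side of a gene, the median share of unique stretches was 97.7%. Reads could thus be placed beside nearly all genes but rarely when they lay wholly within a gene. Reads that cross a gene edge were counted in neither share. Peaks still reached such genes: 10 of the 13 genes under a mock AGO2 peak held no unique stretch.

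AGO2 peaks were found close to few tRNA clusters in mock cells, and Pol II domains to as few. A mock AGO2 peak lay within 1 kb of 18 of 144 clusters (12.5%, 95% Wilson interval 8.06% to 18.9%, which covers the number of clusters only). A LaminB knockdown AGO2 peak lay within 1 kb of 9 clusters (6.25%, 3.32% to 11.5%), and a Pol II domain within 1 kb of 18 clusters (12.5%, 8.06% to 18.9%). By gene, 31 of 290 tRNA genes (10.7%) were within 1 kb of a mock AGO2 peak, against 20.3% of all annotated gene starts. A knockdown AGO2 peak was within 1 kb of 20 tRNA genes (6.90%), against 2.48% of all starts, and a Pol II domain within 1 kb of 33 (11.4%), against 43.6% of all starts. The share of tRNA genes was thus below that of all gene starts for mock AGO2 and for Pol II and above it for knockdown AGO2. Of the genome sequence, 7.04% lay within 1 kb of a mock AGO2 peak, 1.26% of a knockdown AGO2 peak and 11.6% of a Pol II domain. Set against these shares, tRNA genes were above for both AGO2 lists and about level for Pol II, which was not tested. With each cluster given equal weight, the shares were 11.1%, 4.66% and 10.3%. The 20 genes near knockdown peaks came from 9 clusters, and 6 of them were near a single peak in ATP8A, so the share by gene leans on few loci.

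**Figure D1:**
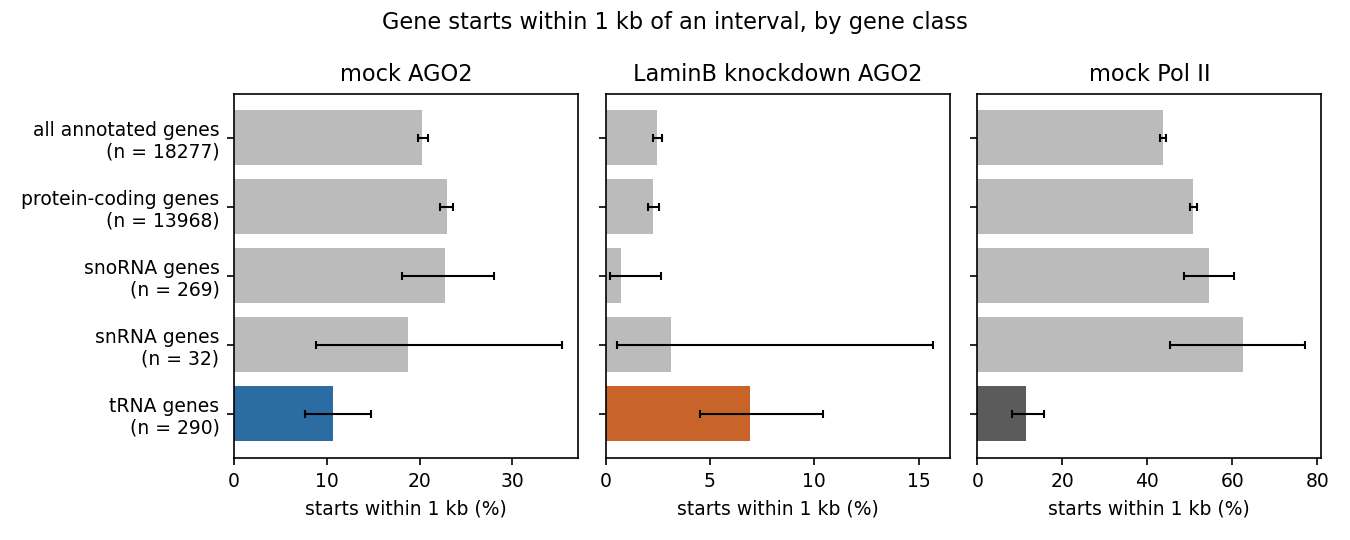
Share of gene starts within 1 kb of an interval (percent, horizontal axis) for 5 gene classes, in 1 panel per list, with 95% Wilson intervals over genes as bars. Neighbouring tRNA genes share intervals and are not independent, which these Wilson intervals ignore. The coloured bars are tRNA genes, at 10.7% for mock AGO2, 6.90% for LaminB knockdown AGO2 and 11.4% for mock Pol II.

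Other noncoding genes varied. The 3289 ncRNA genes had a share close to that of tRNA genes for mock AGO2 (12.2%), with 3.34% for knockdown AGO2 and 19.4% for Pol II. Small nuclear and nucleolar RNA genes are mostly transcribed by Pol II or lie in its transcripts. For mock AGO2 they were closer to the share of all gene starts. Of 269 snoRNA genes, 22.7% had a mock AGO2 peak, 0.743% a knockdown AGO2 peak and 54.6% a Pol II domain within 1 kb of the start. Among 32 snRNA genes the shares were 18.8%, 3.12% and 62.5%. Protein-coding genes, at 22.9%, 2.28% and 50.8%, were close to all genes.

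By median distance Pol II domains were nearest to the tRNA clusters and knockdown AGO2 peaks farthest. The median distance from a cluster to the nearest interval was 8084 bp for Pol II, 14134 bp for mock AGO2 and 63392 bp for knockdown AGO2, and the lists differ in length. Over the first 1 kb the curves crossed: 10 clusters were touched by a mock AGO2 peak and 6 by a knockdown AGO2 peak, but only 4 by a Pol II domain. In the wider range, 37 clusters had a mock AGO2 peak and 54 had a Pol II domain within 5 kb.

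**Figure D2:**
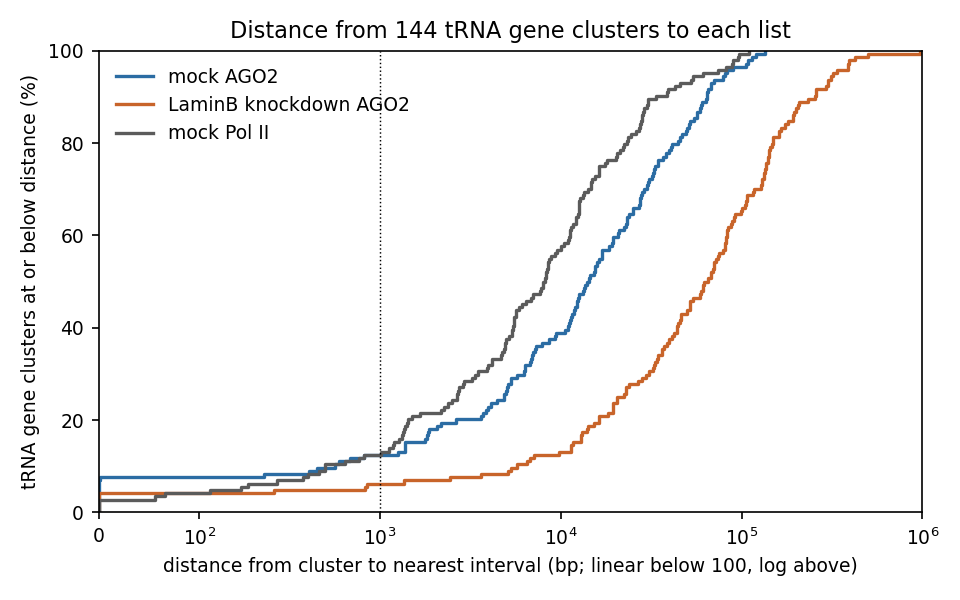
Cumulative share of the 144 tRNA clusters (percent, vertical axis) at or below each distance in bp to the nearest interval of a list (horizontal axis, linear below 100 and logarithmic above, with a dotted line at 1 kb). The curves of mock AGO2 and Pol II meet at 12.5% at 1 kb, and the knockdown AGO2 curve stands at 6.25% there.

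The knockdown list was shorter than the mock list, so the lists were also compared at equal length. Of the 761 highest-ranked mock peaks, 3 (0.394%, 0.134% to 1.15%) lay within 1 kb of a tRNA gene, and they reached 3 clusters and touched 0 genes. Of the 761 knockdown peaks, 9 (1.18%, 0.623% to 2.23%) did so, and they touched 10 genes. These intervals overlapped. The share of all gene starts moved less: 3.51% lay within 1 kb of the shortened mock list and 2.48% within 1 kb of the knockdown list. Matching by strength gave another picture, in a setting added after seeing the data. Of the 2474 mock peaks as strong by −log10 p as the weakest knockdown peak, 13 (0.525%, 0.307% to 0.897%) lay within 1 kb of a tRNA gene. They reached 12 clusters and touched 8 genes, and 12.6% of all gene starts lay within 1 kb of that list. Without a replicate-level test, and with depth and enrichment quality unknown for both lists, a difference in AGO2 binding between mock and LaminB-depleted cells cannot be told apart from a difference in list quality.

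The 3 highest-ranked mock peaks near tRNA genes all lay beside them. The highest, at 3R:7474586-7475090 (−log10 p 98.0, fold enrichment 6.70, rank 18 of 4201), covered the start of snRNA:7SKa, which encodes the 7SK RNA that holds the elongation factor P-TEFb inactive and is itself made by Pol III. It stood 813 bp from tRNA:Val-CAC-2-4. A knockdown peak at 3R:7474625-7475072 (−log10 p 24.3, rank 463 of 761) lay over the same gene. The second mock peak, at 2R:6141302-6141866 (−log10 p 62.4, rank 128), was in an intron of EcR, the ecdysone receptor gene, 299 bp from tRNA:Arg-ACG-1-1. The third, at 3R:8669402-8669848 (−log10 p 44.5, rank 386), covered the start of CG8036, 228 bp from tRNA:Tyr-GTA-1-8, together with a knockdown peak (−log10 p 29.9, rank 258) and a Pol II domain.

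Other AGO2 peaks lay over the tRNA genes. Of the 20 mock AGO2 peaks within 1 kb of a tRNA gene, 11 covered 13 tRNA genes and 9 lay beside them. The 11 covering peaks were narrow (204 to 565 bp, median 311) and of moderate strength (−log10 p 15.7 to 31.6, median 20.8, against 21.4 for the whole list). None of the 11 covered the start of another gene, and 2 overlapped a Pol II domain. Of the 9 peaks beside tRNA genes, 4 covered the start of another gene and 5 overlapped a Pol II domain. In the whole mock list 36.4% of peaks covered such a start and 63.0% overlapped a Pol II domain. The 6 covering peaks of the knockdown list were 261 to 831 bp wide (median 538, against 395 for the whole list) with −log10 p of 20.3 to 36.3 (median 32.5, against 25.9). Of these, 2 covered the start of another gene (38.6% in the whole list), a snoRNA gene and a tRNA pseudogene, and 0 overlapped a Pol II domain.

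Most covering peaks had their summits near the 5′ end of the tRNA gene nearest the summit. The summit lay upstream of the nearest tRNA gene in 10 of 11 mock peaks and 5 of 6 knockdown peaks, in each case by 200 bp or less, and the medians were −17.0 and −33.0 bp from the 5′ end. The exceptions were the mock peak at tRNA:Ala-TGC-2-1, with its summit 337 bp downstream of the 5′ end and outside the gene, and the knockdown peak at tRNA:Lys-CTT-1-1, with its summit 3 bp inside the gene. This regularity was noticed in the values and not tested. A summit between divergent genes counts as upstream of either by construction. This was so at tRNA:Leu-CAA-2-1 and tRNA:Ile-AAT-1-4 in both lists. In the mock list it was also so at tRNA:Trp-CCA-2-6 and tRNA:Gly-GCC-1-13, and at tRNA:Ser-TGA-1-1 and tRNA:Ser-TGA-2-1. In the knockdown list it was also so at tRNA:Lys-CTT-1-5 and tRNA:Arg-ACG-1-4. The lists share loci, among them tRNA:Leu-CAA-2-1 and tRNA:Lys-CTT-1-1, so their counts are not independent. The genes nearest those summits had a median of 100% unique 50-base stretches in the 500 bp on the 5′ side for both lists. On the 3′ side it was 100% (mock) and 97.4% (knockdown), while reads wholly inside most genes could not be placed.

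**Figure D3:**
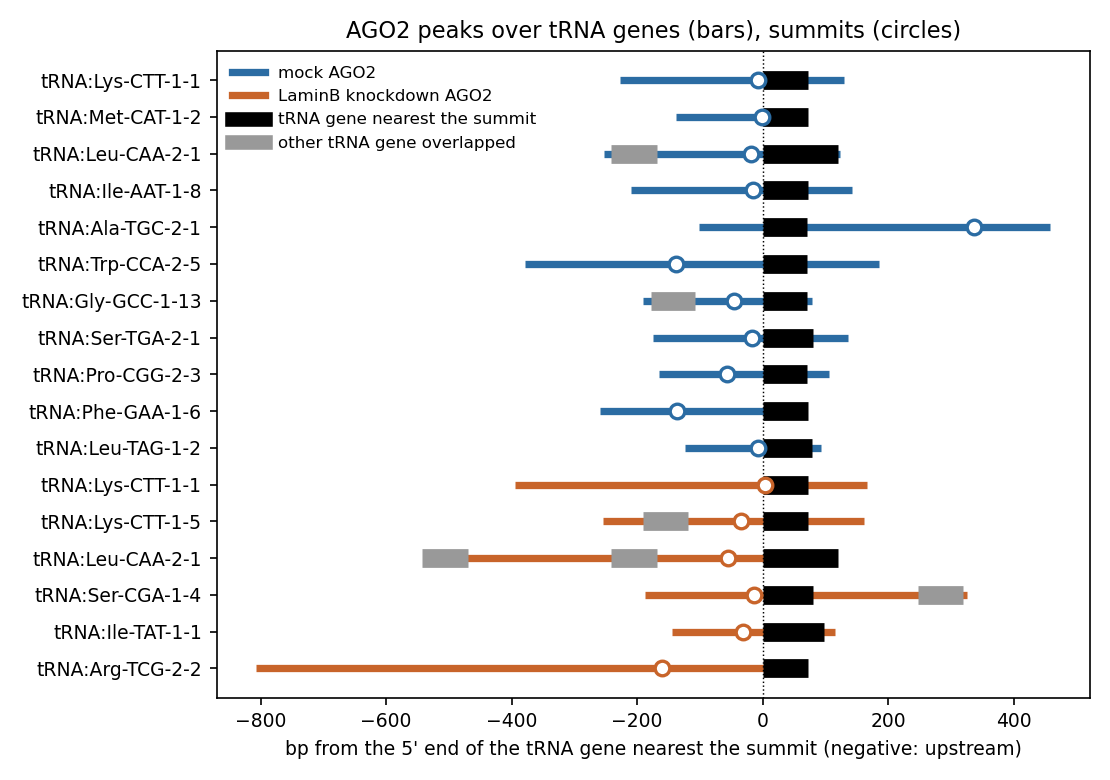
The 17 AGO2 peaks over tRNA genes (coloured bars; mock in blue, LaminB knockdown in orange) drawn in bp from the 5′ end of the tRNA gene nearest the summit, with the gene in black and other covered tRNA genes in grey. Summits (circles) lie upstream within 200 bp in 10 of 11 mock and 5 of 6 knockdown peaks.

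An AGO2 peak lay within 1 kb in both lists at 6 clusters, in the mock list only at 12 and in the knockdown list only at 3. Knockdown peaks touched tRNA genes at 6 of their 9 clusters, and both lists touched a gene at 2 clusters. The strongest knockdown peak of the set, at 2R:6171407-6171823 (−log10 p 36.3, fold enrichment 4.92, rank 124), covered tRNA:Lys-CTT-1-5 and tRNA:Arg-ACG-1-4 at the edge of an 11-gene cluster that runs into EcR. In the mock list the peak closest to that cluster was another one, at the EcR start itself (2R:6168986-6169201, −log10 p 17.6, rank 3235), 406 bp from tRNA:Arg-ACG-1-3 and within a Pol II domain.

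The EcR region held 3 clusters and 16 tRNA genes for Arg, Lys, Asn and Ile in 29595 bp. At its other end, tRNA:Lys-CTT-1-1 was covered in both lists, by a mock peak (2R:6142314-6142671, −log10 p 20.6, rank 2311) and by a knockdown peak (2R:6142277-6142839, −log10 p 31.2, rank 223). The strong mock peak 299 bp from tRNA:Arg-ACG-1-1 had no overlapping knockdown peak. The 3 Asn-GTT genes of the middle cluster had no AGO2 peak in either list within 1 kb, with the nearest at 6821 bp (mock) and 9764 bp (knockdown). Peaks thus covered tRNA genes at both ends of the group and none of the genes between.

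**Figure D4:**
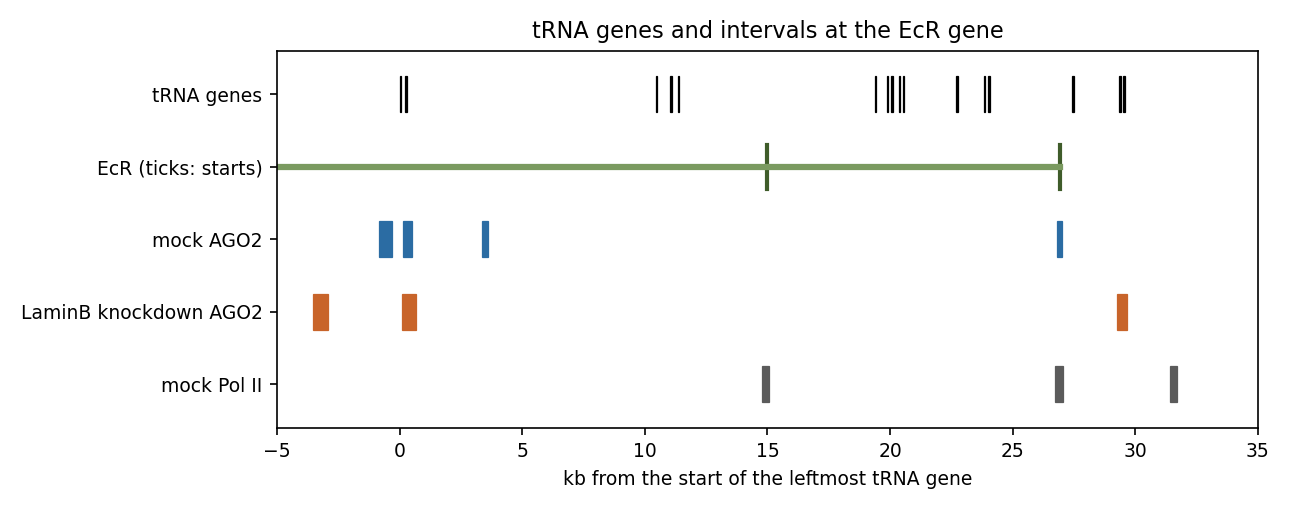
Map of the 16 tRNA genes at EcR in kb from the leftmost tRNA gene, with the body and starts of EcR and the intervals of the 3 lists. AGO2 peaks cover tRNA genes at the left end in both lists and at the right end in the knockdown list only.

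A further 7-gene cluster of Ile-AAT and Leu-CAA genes in an intron of ATP8A, a predicted phospholipid flippase gene, also had peaks in both lists. The mock peak (2R:13430692-13431068, −log10 p 31.6, rank 916) covered tRNA:Leu-CAA-2-1 and tRNA:Ile-AAT-1-4, and the knockdown peak (2R:13430706-13431346, −log10 p 34.1, rank 156) covered tRNA:Ile-AAT-1-5 as well. Another tRNA gene within ATP8A, tRNA:Ile-AAT-1-8, had a mock peak alone (−log10 p 20.9), and the nearest knockdown peak was 6520 bp away. At tRNA:Arg-TCG-2-2 in Mnr, whose sequence is given above, the knockdown peak (X:21231284-21232114, −log10 p 20.3, rank 714) covered the gene and the mock peak (X:21231770-21232090, −log10 p 23.0, rank 1787) ended at its 5′ edge. The knockdown peak also covered the start of the tRNA pseudogene tRNA:Ile-AAT-2-1Psi.

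At 3 clusters there was a knockdown peak and no mock peak within 1 kb. In an intron of hts, the adducin gene, a knockdown peak (2R:19414411-19414923, −log10 p 33.9, rank 162) covered tRNA:Ser-CGA-1-4 and tRNA:Val-AAC-2-1 and also the start of snoRNA:hts-a, and the nearest mock peak was 30440 bp away. At the Ile-TAT pair the knockdown peak (3L:769358-769618, −log10 p 26.4, rank 370) had its summit 32 bp upstream of tRNA:Ile-TAT-1-1, and the nearest mock peak was 4120 bp from the pair. The 2 Ile-TAT genes are among the few with unique sequence, with 83.7% and 84.3% of their 50-base stretches found once in the genome, so reads could be told apart between them. The third cluster, Val-TAC on 3L, had its knockdown peak 847 bp from tRNA:Val-TAC-1-1 over the starts of lama and CG46456, with a Pol II domain, and a mock peak 1821 bp away.

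Mock peaks stood alone at the other clusters. At tRNA:Phe-GAA-1-6, an intergenic gene on 3R, the mock peak (3R:13797694-13797976, −log10 p 30.5, rank 977) had a fold enrichment of 4.28, and the nearest knockdown peak was 257750 bp from the cluster. The mock peak at tRNA:Pro-CGG-2-3 (3L:18618225-18618495, −log10 p 24.2) overlapped a Pol II domain that also covered the starts of CG13380 and CG4174. At the Ser-TGA pair on 2R the mock peak (2R:23072407-23072717, −log10 p 20.8) had its summit 17 bp upstream of tRNA:Ser-TGA-2-1. At the Trp-CCA and Gly-GCC cluster by CG30122 (−log10 p 23.5), and at tRNA:Leu-TAA-2-1 by CG13605 (−log10 p 25.6), the peaks were 448 and 592 bp from the tRNA genes and overlapped Pol II domains. The peak over tRNA:Ala-TGC-2-1 (−log10 p 22.0), whose summit was intergenic, overlapped no Pol II domain.

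Nearly all Pol II domains near tRNA genes lay over starts of other genes, as most Pol II domains did. Of the 19 domains within 1 kb of a tRNA gene, 18 (94.7%) covered the start of another gene, against 5057 of all 5905 (85.6%). Among these starts were those of EcR, RpL17 (a protein of the large ribosomal subunit), Bx (a LIM-only protein) and tud (the Tudor protein of germ granules). Of the 19, 5 domains covered 6 tRNA genes. The longest, at 3L:18616966-18618430, reached tRNA:Pro-CGG-2-3, and another, at 2R:11651404-11652562, covered tRNA:Arg-TCT-1-1 with the starts of CG34228 and CG9003. Domains at 2R:17142946-17144081 and 2R:17145279-17146290 covered tRNA:Leu-AAG-1-2 and tRNA:Leu-AAG-1-3, each together with a gene of the U3 snoRNA (snoRNA:U3:54Aa and snoRNA:U3:54Ab), which acts in pre-rRNA processing. The exception was the domain at 2R:23072020-23072705, which covered tRNA:Ser-TGA-1-1 and tRNA:Ser-TGA-2-1 and no start of another gene. The closest domains that touched no tRNA gene were 56 bp from tRNA:Glu-TTC-1-5 by the start of a snoRNA gene and 66 bp from tRNA:Phe-GAA-1-2 by the start of RpL17. The neighbouring genes named for domains that touched no tRNA gene were chosen after their values were seen.

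Proximity to a protein-coding start separated the clusters by Pol II, largely as the positions of Pol II domains make likely. In the whole list 85.6% of domains covered the start of a gene other than a tRNA gene. The test thus says little about tRNA clusters in particular. A Pol II domain lay within 1 kb of 15 of the 44 clusters with a protein-coding start that close (34.1%, 21.9% to 48.9%) and of 3 of the 100 others (3.00%, 1.03% to 8.45%). By Fisher's exact test over clusters, two-sided as all such tests here, the odds ratio of 16.7 had p = 1.08e-06 (5.38e-06 with Benjamini-Hochberg adjustment over 5 tests). For mock AGO2 the counts were 10 of 44 (22.7%) and 8 of 100 (8.00%), an odds ratio of 3.38 (Fisher's exact test, p = 0.0256, adjusted 0.0349). That AGO2 difference was lost under 4 of 7 alternatives (adjusted p 0.0219 to 1.00), with an odds ratio of 2.44 in the stronger 50% of the list and 1.14 in the shortened list. The Pol II difference was lost only when a domain had to touch a tRNA gene, with 2 of 44 and 2 of 100 clusters.

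Among tRNA clusters, mock AGO2 peaks were more frequent where a Pol II domain was near. By peak, overlap was below that of the whole list: 7 of the 20 mock AGO2 peaks near tRNA genes overlapped a Pol II domain, against 63.0% of all mock peaks. Of 18 clusters with a Pol II domain within 1 kb, 8 had a mock AGO2 peak (44.4%, 24.6% to 66.3%), against 10 of the 126 others (7.94%, 4.37% to 14.0%), an odds ratio of 9.28 (Fisher's exact test, p = 0.000254, adjusted 0.000635). Of the 8 clusters with both, 7 also had a protein-coding start within 1 kb. Among clusters with no such start, 1 of 3 and 7 of 97 had a mock AGO2 peak (odds ratio 6.43, Fisher's exact test, p = 0.223, not adjusted). This setting was 1 of 8 alternatives, over which the adjusted p of Fisher's exact test ran from 6.24e-05 to 0.553. Knockdown AGO2 and Pol II shared 3 clusters.

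Intronic clusters had a Pol II domain within 1 kb less often than intergenic ones, a difference that held under 2 of 6 alternatives. A Pol II domain lay within 1 kb of 3 of 62 intronic clusters (4.84%, 1.66% to 13.3%) and 12 of 68 intergenic ones (17.6%, 10.4% to 28.4%), with an odds ratio of 0.237 (Fisher's exact test, p = 0.0279, adjusted 0.0349). Among clusters with no protein-coding start within 1 kb the counts were 0 of 48 and 3 of 49, in the same direction and not past the threshold, and with the window widened to 5 kb they were 23 of 62 and 24 of 68 (odds ratio 1.08). Over 6 alternatives the adjusted p of Fisher's exact test was between 0.0219 and 0.857, the setting without nearby starts being left unadjusted. Mock AGO2 was found at 8 of 62 intronic clusters (12.9%, 6.69% to 23.4%) and 7 of 68 intergenic ones (10.3%, 5.08% to 19.8%). The odds ratio was 1.29 and the difference missed the threshold (Fisher's exact test, p = 0.785, adjusted 0.785). Knockdown AGO2 was found at 5 intronic, 3 intergenic and 1 mixed cluster.

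**Figure D5:**
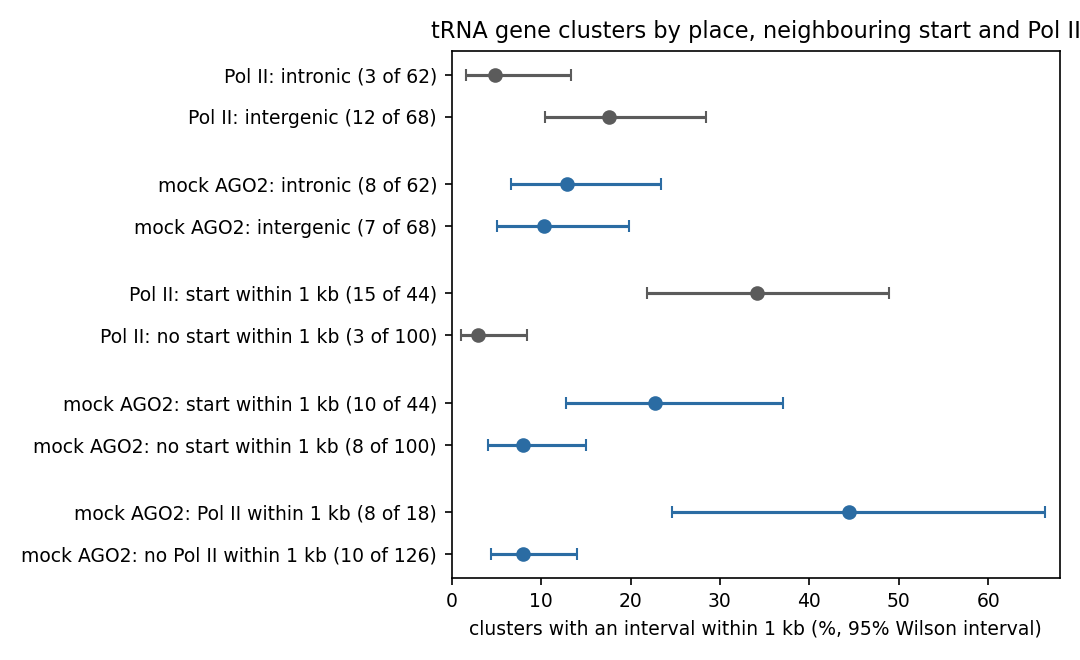
Share of tRNA clusters with an interval within 1 kb (percent, horizontal axis) in the paired classes of the 5 tests, with 95% Wilson intervals over clusters as bars and counts in the labels. The widest gap in percent is that of mock AGO2 by Pol II, 44.4% against 7.94%, followed by Pol II by a protein-coding start, 34.1% against 3.00%.

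Clusters of different size were set side by side as a description. A mock peak lay within 1 kb of 7 of 76 single genes (9.21%), 7 of 38 pairs (18.4%) and 4 of 30 larger clusters (13.3%). Knockdown peaks were near 1 of 76 single genes, 4 of 38 pairs and 4 of 30 larger clusters, and Pol II domains near 6, 5 and 7. Larger clusters span more sequence, with a median length of 1748 bp against 73.00 bp for single genes, and no test was run across sizes. Apart from the 11-gene cluster at EcR, the largest clusters of the arms had no interval within 1 kb. The 11-gene cluster on 3R, of Ala, Pro, Thr and Val genes, was 13556 bp from mock AGO2 and 11334 bp from Pol II. The 7-gene Arg and Ser cluster on X and the 5 Gln-CTG genes on 2L had all 3 lists at 17948 bp or more. On 3L, 3 clusters of 6 genes tied: the Glu-CTC genes were 30406 bp or more from all 3 lists, the Cys-GCA and Lys-CTT genes in Cht7 were 3859 bp from mock AGO2 and 3955 bp from Pol II, and the Leu-CAG genes at Sarm were 1383 and 1363 bp from them.

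By amino acid type, a cluster was counted for a type only where a gene of that type was itself within 1 kb of an interval, so the Asn-GTT genes inside the 11-gene EcR cluster were not counted for the peaks at its edge. Mock AGO2 peaks were near genes of 13 of 22 types and knockdown peaks near genes of 7. No gene of the types Asn, Asp, Cys, Gln, Glu, His, Thr, SeC or iMet was within 1 kb of a peak of either AGO2 list. With few clusters per type the limits were wide: for Thr, 0 of 11 clusters in each list allowed a share of up to 25.9%, and for Asn, 0 of 5 allowed up to 43.4%. Trp had 2 of 5 clusters near mock AGO2 (40.0%, 11.8% to 76.9%) and 3 of 5 near Pol II. Ile had 2 of 6 clusters in each AGO2 list (33.3%, 9.68% to 70.0%) and no gene near Pol II. Arg had 3 of 14 clusters in each AGO2 list (21.4%, 7.57% to 47.6%), Val 1 of 9 in mock and 3 of 9 in knockdown, and Leu 3 of 14 and 1 of 14. Lys had 1 of 9 and 2 of 9, Ser 1 of 12 in each, and Tyr 1 of 5 in each at the same CG8036 cluster. Gly and Pro each had 2 clusters near mock AGO2 and 0 near knockdown AGO2, as did Met, and Ala and Phe had 1 and 0. A mixed cluster can count for more than one of its types, so the counts are not independent.

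Chromosome arms differed in the same descriptive way. The tRNA genes were spread unevenly, with 98 on 2R, 79 on 3R, 48 on 3L, 41 on 2L, 24 on X and 0 on 4 or Y. On 2R, 9 of 44 clusters were near mock AGO2 (20.5%, 11.2% to 34.5%), 4 near knockdown AGO2 and 9 near Pol II. On 2L, 0 of 25 clusters were near any of the 3 lists, which allowed a share of up to 13.3% by the Wilson limit. The shares over all clusters, 12.5% for mock AGO2, 6.25% for knockdown AGO2 and 12.5% for Pol II, lay within that limit. As a separate measure, 14.2% of mock AGO2 peaks, 13.8% of knockdown peaks and 17.3% of Pol II domains lay on 2L. The arms were set side by side after the values were seen.

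The protein-coding genes of the tRNA pathway had Pol II at 47 of 51 starts (92.2%), while mock AGO2, at 6 starts (11.8%) and 11 bodies (21.6%), was near the share of all protein-coding genes. Pol II domains covered a start of 10 of 10 Pol III subunit genes, 7 of 8 Pol III factor genes, 10 of 13 tRNA processing and export genes and 20 of 20 cytoplasmic aminoacyl-tRNA synthetase genes, against 45.8% of all protein-coding genes. Mock AGO2 peaks covered a start of 1, 2, 0 and 3 of them and touched the body of 1, 3, 1 and 6, against 10.4% (start) and 21.1% (body) of all protein-coding genes. No knockdown AGO2 peak touched any of the 51 genes, against 3.57% of all protein-coding genes by body. Among Pol III genes, mock peaks were at the starts of Bdp1 (−log10 p 34.4), a subunit of TFIIIB, Polr3C (24.9), a subunit of the polymerase, and La (17.3), which binds the 3′ end of new Pol III transcripts, and within Pbp95 (18.4), a subunit of the snRNA activator complex. Among synthetases, which charge tRNAs with their amino acids, the strongest were at HisRS (−log10 p 64.4, rank 109) and LysRS (44.2, rank 394), followed by GlyRS (20.2), GluProRS (17.8), GlnRS (16.8) and AsnRS (15.6). The only processing gene touched was cbc (23.3), the fly counterpart of the RNA kinase CLP1.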

How the data were processed

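Per the labels and methods, the authors used cutadapt 1.10 for trimming and Bowtie2 2.2.8 for alignment to dm6, kept uniquely mapped reads with SAMtools 1.3.1, removed duplicates with Picard 2.5.0 and called intervals on pooled replicates with MACS2 2.1.1.20160309. AGO2 peaks were then limited by reproducibility between pseudoreplicates, and Pol II domains were broad calls found in at least 1 replicate, merged with bedtools 2.25.0. The deposited AGO2 lists give fold enrichment (a ratio of ChIP to local background) and −log10 p, and the Pol II list gives positions only. Unique mapping removes reads that lie wholly inside repeated tRNA genes.

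Distances were measured from gene to interval edge on dm6 coordinates (Ensembl 115), in Python 3.11.15. The window was 1 kb, clusters were joined within 5 kb, and Fisher's exact tests (scipy 1.17.1) were adjusted over 5 tests. Distances and tests were checked on simulated data. Named clusters were those with a knockdown peak, the 12 highest mock −log10 p, the largest per arm, and those with a Pol II domain over a gene. Of the pathway genes, those with an AGO2 peak were named. Members and lists were chosen with earlier results of these data known.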

Additional observations from a re-analysis of the deposited data

How the results depend on the processing

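Of 52 alternatives, 32 kept the direction and the side of the threshold (or stayed within 1.5 times for counts). The mock AGO2 count of 18 clusters became 10 when a peak had to touch a tRNA gene, 37 within 5 kb, 10 in the stronger 50% of the list and 3 in the list shortened to the knockdown length. Keeping only mock peaks as strong by −log10 p as the weakest knockdown peak, a setting added after seeing the data, left 12. The Pol II count of 18 became 4 by touch and 54 within 5 kb, and the knockdown count of 9 stayed between 6 and 12. The odds ratio of Pol II by place was 0.262 with clusters joined within 10 kb, 0 by touch, 1.08 (reversed) within 5 kb and 0 among clusters with no protein-coding start within 1 kb. That of mock AGO2 by place turned to 0.945 with 10 kb joining and 0.869 in the stronger 50%, in neither case past the threshold. That of Pol II by protein-coding start fell to 2.33 by touch. That of mock AGO2 by protein-coding start was 2.44 by touch, 2.15 within 5 kb, 2.44 in the stronger 50% and 1.14 in the shortened list. That of mock AGO2 by Pol II was 16.5 by touch, 3.65 in the shortened list and 6.43 without protein-coding starts. Touching leaves 10 or fewer clusters per list, and the other causes were not tested. No paired analysis was possible because each condition had 1 pooled list, and no replicate could be left out. Depth, pooling and repeated tRNA sequence limit all counts.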

Other observations

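Other noncoding genes that Pol III transcribes were looked up after the peak over snRNA:7SKa was seen. Of 2 7SK genes, snRNA:7SKa was covered by a peak in both AGO2 lists, while the nearest mock peak to snRNA:7SKb was 73028 bp away. The 3 U6 snRNA genes, the 2 7SL RNA genes and 100 5S rRNA loci had 0 intervals of any list within 1 kb. Some of the 5S loci are annotated as pseudogenes. The 5S loci are repeats of nearly the same sequence, in which uniquely mapped reads are rare, so their count of 0 says little about binding. The same holds for the 7SL genes, which lie in the 3′ flanks of tRNA:Lys-TTT-2-1 and tRNA:Lys-TTT-2-4. Only 9.98% of 50-base stretches in each of those flanks were unique. Uniqueness at the U6 genes was not measured.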
